A study of Rattus norvegicus with 18 samples.

Results

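Transcript levels of 9 genes that move or convert glutamate, glycine and glutamine were followed in rat spinal cord material on 18 single-channel Affymetrix arrays. The genes were Slc1a1, Slc1a2, Slc1a3, Slc1a4, Slc6a9, Slc7a11, Slc38a3, Glul and Glud1. All probe sets that the platform annotation assigns to these symbols were taken, which gave 18 of the 31042 probe sets tested and 9 of the 14217 named genes. All 9 genes were measured, and no filter on low values was applied. Of the arrays, 6 were of material given bone morphogenetic protein (BMP, a TGF-beta family ligand) at 10 ng/mL with the entry "4d", and 6 of material given ciliary neurotrophic factor (CNTF, a cytokine that signals through gp130) at 10 ng/mL with the same entry. The remaining 6 were controls, whose label carries neither a time nor a dose. The labels do not say which BMP was used, which strain or age the rats had, or whether the material was cultured and of which cells. The entry "14 NT" stands on all 18 arrays and was not interpreted. Each array also bears a number from 1 to 6 that occurs once per group, by which arrays are told apart below. Whether the arrays of a group stem from different animals or cultures is not stated. The p-values therefore cover only how far these arrays spread, and part of that may be technical.

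Glutamate released into the extracellular space is taken up by sodium-coupled transporters of the SLC1 family, chiefly Slc1a3 (GLAST) and Slc1a2 (GLT-1) of astrocytes, and in neurons and some glia by Slc1a1 (EAAC1). Astrocytes turn glutamate into glutamine with glutamine synthetase (Glul) and can release it through the glutamine transporter Slc38a3 (SNAT3), while glutamate dehydrogenase (Glud1) feeds glutamate into the citric acid cycle. Glycine, an inhibitory transmitter of the spinal cord and a co-agonist of NMDA receptors, is removed by the glial transporter Slc6a9 (GlyT1). Slc1a4 (ASCT1) exchanges small neutral amino acids such as serine, and Slc7a11 (xCT) exports glutamate in exchange for cystine, the precursor of glutathione.

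Promoter sequences are shown for Slc6a9 and Slc7a11, the called members with a matched promoter, and for Slc1a4, whose window was the only member window with a match to the amino acid response element. The sequences are from RefSeq, build GRCr8, and run from 250 bases before to 50 after the annotated start, 5′ to 3′ on the gene's own strand. Slc6a9 is at chr5:136659826-136660125 (plus strand), Slc7a11 at chr2:136668215-136668514 (minus strand) and Slc1a4 at chr14:98761513-98761812 (minus strand). Capitals mark motif matches.
Slc6a9: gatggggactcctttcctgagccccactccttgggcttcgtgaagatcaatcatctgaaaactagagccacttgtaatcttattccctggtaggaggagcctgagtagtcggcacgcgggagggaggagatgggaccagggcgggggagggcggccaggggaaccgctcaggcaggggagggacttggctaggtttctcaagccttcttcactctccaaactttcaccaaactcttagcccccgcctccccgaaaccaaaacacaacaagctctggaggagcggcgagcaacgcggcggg
Slc7a11: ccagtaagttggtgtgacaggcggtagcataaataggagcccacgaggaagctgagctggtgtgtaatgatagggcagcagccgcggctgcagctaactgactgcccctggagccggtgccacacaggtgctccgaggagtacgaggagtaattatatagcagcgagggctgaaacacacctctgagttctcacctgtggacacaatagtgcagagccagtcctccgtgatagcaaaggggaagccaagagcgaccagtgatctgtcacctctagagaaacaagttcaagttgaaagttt
Slc1a4: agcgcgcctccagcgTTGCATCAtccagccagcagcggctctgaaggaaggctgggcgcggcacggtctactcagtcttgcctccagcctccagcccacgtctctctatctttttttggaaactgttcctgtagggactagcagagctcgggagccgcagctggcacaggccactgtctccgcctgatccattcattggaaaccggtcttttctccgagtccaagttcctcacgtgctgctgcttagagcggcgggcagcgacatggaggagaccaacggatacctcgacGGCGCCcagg
The motifs searched on both strands were the amino acid response element TGATGNAA, the antioxidant response element TGACNNNGC, the STAT element TTCNNNGAA and the GC-rich SMAD element GGCGCC. Of 33469 RefSeq promoters of the same length, 3.98%, 12.1%, 8.87% and 11% held them, in that order. Promoters of 7 of the 9 members matched by symbol, in 11 windows. Slc1a1 and Slc38a3 did not match. In the Slc1a4 promoter, TTGCATCA at position -235 relative to the start is the amino acid response element read on the opposite strand, and GGCGCC begins at position 41. One of the Glul promoters held GGCGCC at position -57. No match lay in the other member windows, those of Slc6a9 and Slc7a11 included.

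Levels are given as deposited linear intensities, lowest, median and highest of the 6 arrays of a group. Differences are of log2(intensity + 116.655) and are given with limma's moderated standard error after ±. Because of the added constant they understate the change of dim probe sets. Intensities of different probe sets were compared only in marker sums, in the choice of a brightest probe set and against the table median. The array medians lay between 666.5 and 817.2 and the median of the whole table was 746.4, which serves as a mark of dim signal. A gene is represented by its brightest probe set, and a call means an adjusted p under 0.05 over all probe sets (limma, Benjamini-Hochberg).

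Markers describe the material these genes were measured in. Mean intensity lay below the table median for 1 of 14 astrocyte markers with BMP, 1 with CNTF and 2 in controls, and for 1 of 10 oligodendrocyte precursor markers with BMP and 0 in the other groups. All 12 microglia and macrophage markers and all 9 endothelial markers lay below it in every group. No deposited value was 0. The summed intensity of the 10 precursor markers was 34573 to 147960 on BMP arrays and 137214 to 190169 on CNTF arrays, against 165516 to 223003 on control arrays, and all 10 were called lower with BMP. That of 15 oligodendrocyte markers was 29681 to 150296 with BMP and 135840 to 395100 with CNTF, against 107147 to 334195 in controls, with 9 called lower with BMP. That of the astrocyte markers was 226338 to 384953 with BMP and 252601 to 421367 with CNTF, against 172021 to 330898 in controls, with 1 called higher with BMP (5 with the replicate block) and 2 higher and 1 lower with CNTF (6 and 3). The median difference over these 14 markers was 0.21 with BMP and -0.044 with CNTF, so the CNTF sums did not reflect a rise across the list. Neuron markers summed to 126564 to 197886 with BMP and 156321 to 179341 with CNTF, against 151891 to 161568 in controls, with 2 of 15 called higher and 1 lower with BMP (7 and 2 with the block) and 0 with CNTF (limma; 3 higher and 1 lower with the block, and as many where p was under 0.05 before adjustment). Fibroblast and smooth muscle markers summed to 14215 to 81679 with BMP and 4365 to 26659 with CNTF, against 4922 to 13834 in controls, with 1 of 12 called higher with BMP (5 with the block) and 0 with CNTF (limma; 1 higher at an unadjusted p under 0.05 and with the block). Schwann cell markers summed to 21572 to 31825 with BMP and 30868 to 45497 with CNTF, against 19988 to 31074 in controls, with 1 of 8 called higher with BMP and 2 with CNTF. Over all named genes, 7.24% were called in either direction with BMP and 2.86% with CNTF. The block called 16.7% and 7.57% of all probe sets in either direction. Fewer cells of a type and less RNA per cell cannot be told apart in such material, and the part of these marker differences in the results that follow was not tested.

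With BMP, 3 of the 9 genes were called lower than in controls and 0 higher (limma; at an unadjusted p under 0.05 also 3 lower and 0 higher). They were the glutamate transporter Slc1a1, the glycine transporter Slc6a9 and the glutamine transporter Slc38a3. Over all named genes, 3.02% were called lower, 4.21% higher and 7.24% in either direction. With CNTF, the cystine and glutamate exchanger Slc7a11 was called higher and Slc6a9 lower, 2 of 9. Over all genes, 2.04% were called higher, 0.823% lower and 2.86% in either direction. Between BMP and CNTF, Slc1a1 and Slc7a11 were called lower with BMP, 2 of 9. Over all genes, 3.76% were called lower, 3.74% higher and 7.50% in either direction. The median difference over the 9 genes was -0.17 for BMP and -0.27 for CNTF against controls and -0.17 for BMP against CNTF. Over all named genes these medians lay between -0.0045 and 0.0059. These counts come from a fit that did not use the title numbers. With the numbers as a replicate block, 0 members were called higher and 4 lower with BMP, and 1 higher and 2 lower with CNTF. Between BMP and CNTF, 0 were then higher and 3 lower with BMP. In these comparisons the block called 16.7%, 7.57% and 15.1% of all probe sets. Such shares are over probe sets and either direction, while members are counted as genes and by direction. The BMP and CNTF contrasts share the 6 control arrays.

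**Figure D1:**
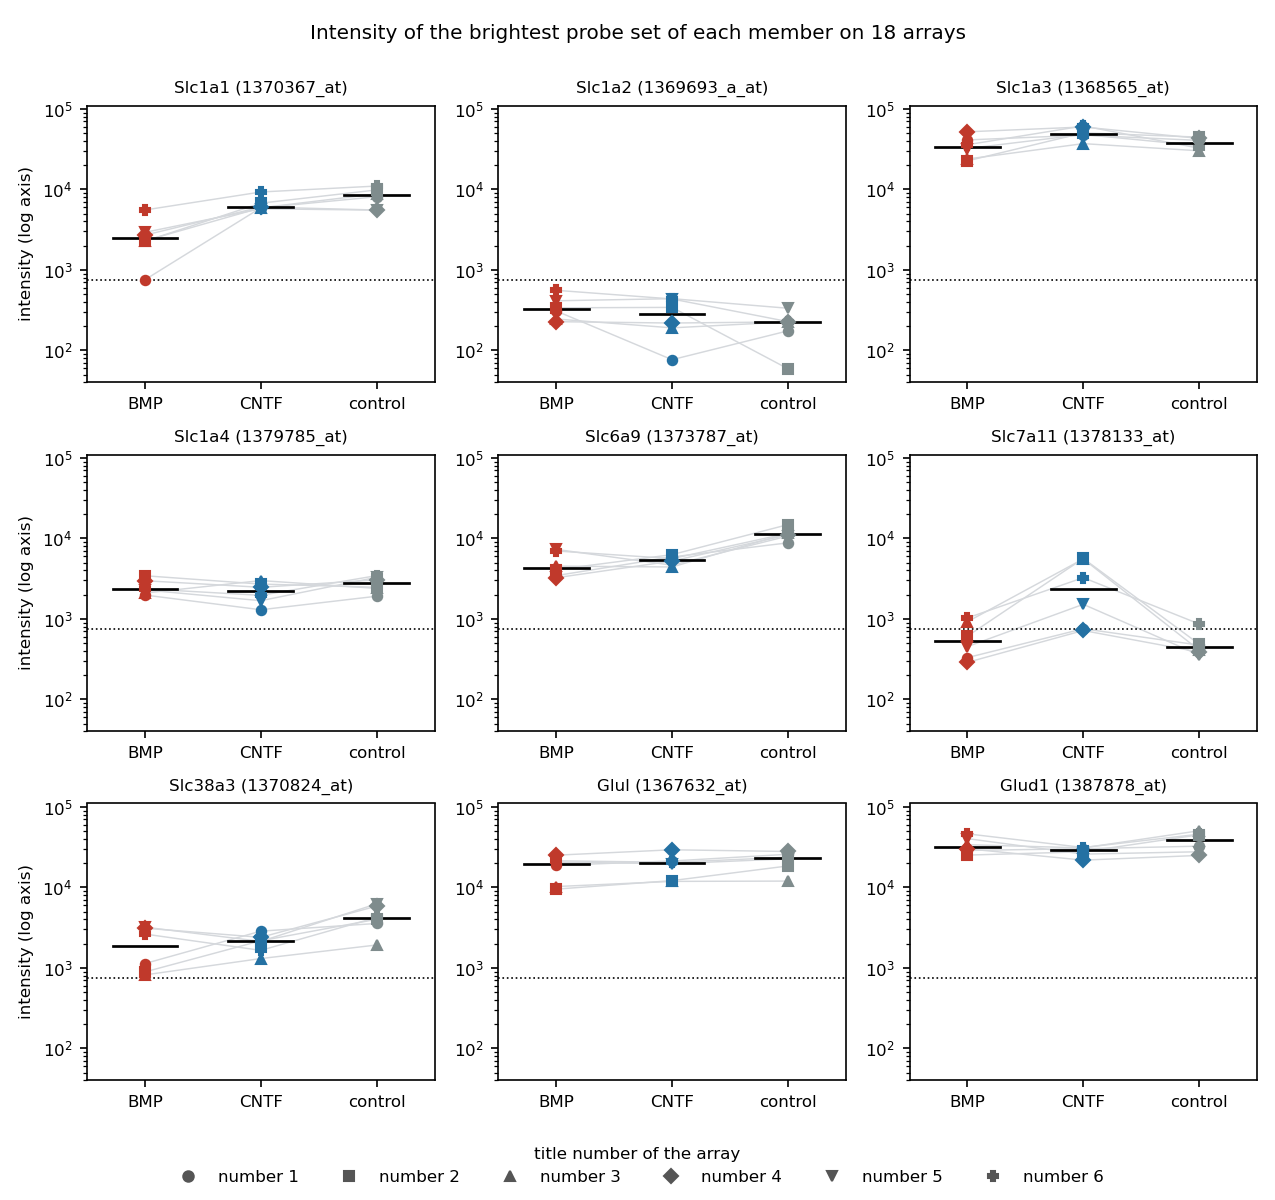
Intensity of the brightest probe set of each of the 9 genes on every array (log axis), with BMP, CNTF and control arrays from left to right. Symbols mark the title number, thin lines join arrays of a number, bars are group medians and the dotted line is the table median of 746.4. The Slc6a9 points of BMP and CNTF arrays all lie below those of control arrays, while the Slc1a2 points lie below the dotted line on all 18 arrays.

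Slc1a1, the sodium-coupled glutamate and cysteine transporter, was lower with BMP than in both other groups. Its intensity was 754.4, 2500.2 and 5544.3 (lowest, median, highest) on BMP arrays and 5733.6, 5967.6 and 9271.5 on CNTF arrays, against 5524.5, 8438.7 and 10988.3 on control arrays. All BMP arrays lay below all CNTF arrays, as they did for 1.78% of all genes, and the highest BMP array, number 6, lay just above the lowest control. The difference of BMP against control was -1.67 ± 0.30, a 3.19-fold lower level (adjusted p = 0.00225), and of BMP against CNTF -1.40 ± 0.30 (adjusted p = 0.00681). It was lower with BMP in 6 of 6 same-numbered pairs in both comparisons, as were 8.37% and 8.26% of all probe sets. In numbers 1 to 6 the BMP difference against control was -3.24, -2.06, -1.88, -1.005, -0.89 and -0.97, so numbers 1 to 3 moved further than numbers 4 to 6. CNTF against control gave -0.27 ± 0.30 (adjusted p = 0.863), with a 95% interval from -0.90 to 0.36. A second Slc1a1 probe set gave -1.61 for BMP and -0.20 for CNTF against control and -1.41 between them, and there the BMP arrays overlapped neither group. Both Slc1a1 calls were kept on both probe sets whichever single array was left out. The fall accompanied that of the precursor markers, of which Pdgfra, the PDGF receptor of those cells, differed by -1.80 ± 0.31 with BMP (adjusted p = 0.00162) and by -0.29 ± 0.31 with CNTF (adjusted p = 0.850). The 15 oligodendrocyte markers were lower with BMP as well, with 9 called and a median of -1.44, against -1.33 for the precursor markers. The part of either list in the Slc1a1 difference was not tested.

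Slc1a2, the GLT-1 glutamate transporter of mature astrocytes, was dim throughout. Its brighter probe set read 227.3, 323.2 and 557.3 on BMP arrays and 76.6, 280.3 and 438.8 on CNTF arrays, against 59.2, 225.8 and 333.6 on control arrays. Every array lay below the table median, on the second probe set as well. The differences against control were 0.53 ± 0.26 for BMP (adjusted p = 0.290, interval -0.017 to 1.08) with the BMP array higher in 6 of 6 pairs, as were 9.51% of all probe sets, and 0.26 ± 0.26 for CNTF (adjusted p = 0.834). On the second probe set they were 0.10 and -0.015, and the sign of each changed with other settings.

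Slc1a3, the GLAST glutamate transporter of astrocytes and radial glia, was bright on all arrays. It read 22589.1, 33981.8 and 51840.2 on BMP arrays and 36968.1, 49113.6 and 61297.8 on CNTF arrays, against 30129.6, 37709.3 and 44524.6 on control arrays. The groups overlapped. CNTF against control gave 0.42 ± 0.17 (adjusted p = 0.323, interval 0.056 to 0.79), with the CNTF array higher in 6 of 6 pairs, a pattern that 7.18% of all probe sets showed. BMP against control gave -0.17 ± 0.17 (adjusted p = 0.698). BMP against CNTF gave -0.59 ± 0.17, lower in 6 of 6 pairs, and missed the threshold (adjusted p = 0.0510). That difference was called with the replicate block (adjusted p = 0.00496), where 15.1% of all probe sets were called. It was also called without BMP array 1 (0.0443), BMP array 4 (0.0101) or CNTF array 3 (0.0292), with dim probe sets left out (0.0430) and with array weights (0.0301). A second bright Slc1a3 probe set gave 0.54 for CNTF against control and -0.67 for BMP against CNTF, neither called (adjusted p = 0.358 and 0.105) and both called with the block (0.0423 and 0.00701). Another, close to the table median, gave -0.23 and 0.18 in these comparisons. Over the same arrays Gfap, the astrocyte intermediate filament, differed by 3.96 ± 0.78 with CNTF (adjusted p = 0.00708, and 0.0557 and 0.0583 without all arrays of number 2 or 3) and by 2.33 ± 0.78 with BMP (adjusted p = 0.0867, and 0.0169 with the block), against controls in which it ranged from 218.6 to 30261.6. The 14 astrocyte markers went both ways with CNTF, with 2 called higher, 1 lower and a median difference of -0.044.

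Slc1a4, the exchanger of serine and other small neutral amino acids whose promoter is shown above, was called in no comparison. It read 1976.0, 2324.0 and 3430.7 on BMP arrays and 1297.3, 2213.2 and 2988.1 on CNTF arrays, against 1910.2, 2760.0 and 3445.6 on control arrays. BMP gave -0.12 ± 0.19 and CNTF -0.35 ± 0.19 against control (adjusted p = 0.813 and 0.543), with intervals from -0.52 to 0.28 and from -0.75 to 0.052.

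Slc6a9, which clears glycine, was lower with both factors. Its brightest probe set read 3242.1, 4299.0 and 7289.2 on BMP arrays and 4409.2, 5410.9 and 6275.8 on CNTF arrays, against 8796.4, 11301.1 and 14805.2 on control arrays. No BMP or CNTF array reached the lowest control array. Groups that do not overlap in the lower direction were found for 1.48% of all genes with BMP and 0.788% with CNTF. The differences were -1.25 ± 0.18 for BMP (2.37-fold lower, adjusted p = 0.000618) and -1.07 ± 0.18 for CNTF (2.10-fold lower, adjusted p = 0.00174), each lower in 6 of 6 pairs. In numbers 1 to 6 they were -1.32, -1.83, -1.33, -1.73, -0.55 and -0.72 with BMP, and -0.57, -1.22, -1.37, -1.07, -1.18 and -1.03 with CNTF. BMP against CNTF gave -0.17 ± 0.18 (adjusted p = 0.722, interval -0.55 to 0.20). Both calls were kept whichever single array was left out. The other probe sets of Slc6a9 gave -1.25 and -1.30 with BMP (adjusted p = 0.00676 and 0.00123) and -0.98 and -1.03 with CNTF (adjusted p = 0.0549, and 0.0192 with the block, and 0.00942). Of these calls, the first was lost without all arrays of number 2 (0.0660) and the last without those of number 3 (0.0738). On the first of these other probe sets the BMP and control arrays overlapped, and number 5 gave -0.035 with BMP. The precursor markers were called lower with BMP for 10 of 10 and with CNTF for 1 of 10. Of 15 oligodendrocyte markers, 9 were called lower with BMP and 0 with CNTF.

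**Figure D2:**
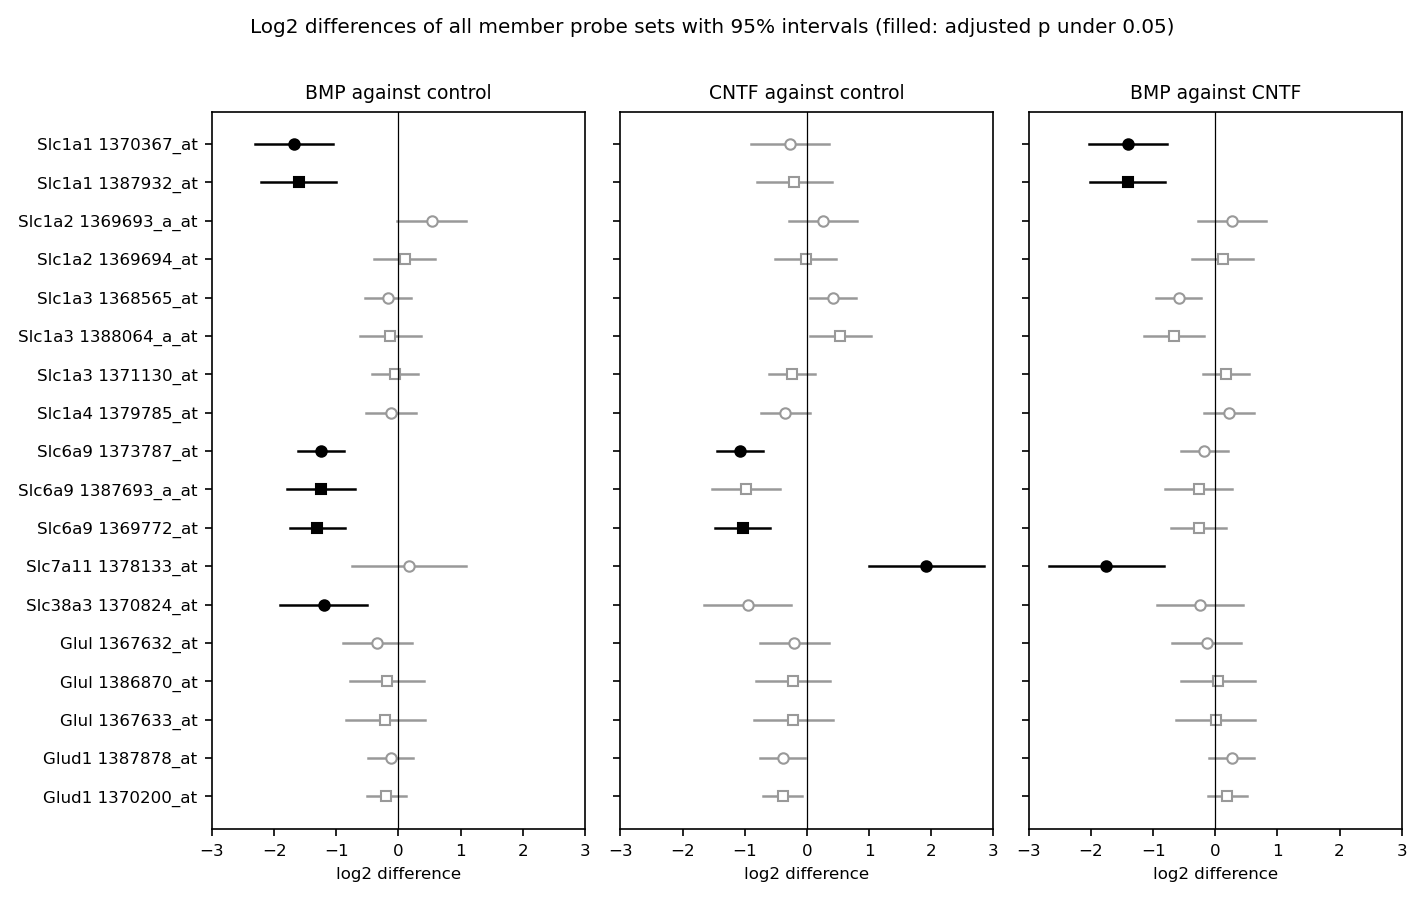
Log2 difference with its 95% interval for every probe set of the 9 genes, with 1 panel for each of the 3 comparisons. Circles are the brightest probe set of a gene, squares its other probe sets, and filled symbols are called. The intervals of all Slc6a9 probe sets lie below 0 against control for both factors, and that of Slc7a11 lies above 0 for CNTF alone.

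Slc7a11, the light chain of the cystine and glutamate exchanger, was higher with CNTF than in both other groups. Its single probe set read 288.5, 531.6 and 1027.4 on BMP arrays and 716.9, 2382.3 and 5625.5 on CNTF arrays, against 356.6, 440.9 and 864.6 on control arrays. Below the table median lay 4 of 6 BMP arrays and 1 of 6 CNTF arrays, against 5 of 6 control arrays. CNTF against control gave 1.92 ± 0.44, a 3.79-fold higher level (adjusted p = 0.0220, interval 1.0 to 2.84). In numbers 1 to 6 it gave 0.56, 3.25, 3.43, 0.73, 1.79 and 1.78. The direction was shared by 6 of 6 pairs, while numbers 2 and 3 lay well above numbers 1 and 4. BMP against CNTF gave -1.75 ± 0.44 (3.37-fold lower, adjusted p = 0.0202), lower in 6 of 6 pairs. BMP against control gave 0.17 ± 0.44 (adjusted p = 0.898). The CNTF call was lost without CNTF array 2 (1.65, adjusted p = 0.0554), CNTF array 3 (1.66, 0.0586) or CNTF array 6 (1.81, 0.0573), and without all arrays of number 2 (0.128), 3 (0.117), 5 (0.0902) or 6 (0.0618). The call between BMP and CNTF was lost without CNTF array 2 (-1.48, 0.0511) or CNTF array 6 (-1.64, 0.0540), and with only these groups in the fit (0.0581) or without all arrays of number 2 (0.0997), 3 (0.0622) or 5 (0.0660).

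**Figure D3:**
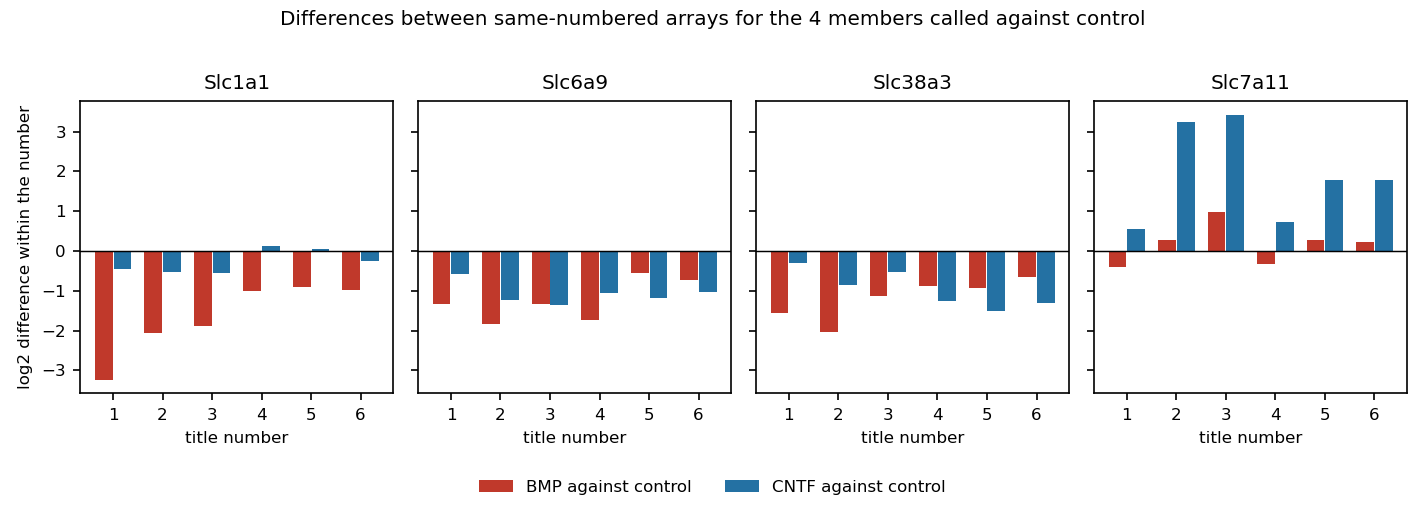
Log2 difference within each same-numbered pair (numbers 1 to 6) for the 4 genes called against control, with BMP minus control and CNTF minus control. Slc7a11 with CNTF runs from 0.56 to 3.43 over the numbers, and Slc1a1 with BMP from -3.24 to -0.89.

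Slc38a3, a sodium-coupled glutamine transporter, was lower with BMP. It read 818.0, 1880.3 and 3201.4 on BMP arrays and 1304.7, 2151.3 and 2858.1 on CNTF arrays, against 1923.4, 4123.1 and 6239.5 on control arrays. The groups overlapped. BMP against control gave -1.20 ± 0.33 (2.30-fold lower, adjusted p = 0.0370) and CNTF against control -0.95 ± 0.33 (adjusted p = 0.195, and 0.0155 with the replicate block, where 7.57% of all probe sets were called). Both were lower in 6 of 6 pairs, and BMP against CNTF gave -0.25 ± 0.33 (adjusted p = 0.810, interval -0.95 to 0.45). In numbers 1 to 6 the BMP difference was -1.56, -2.03, -1.13, -0.89, -0.94 and -0.66, and the CNTF difference -0.31, -0.85, -0.52, -1.25, -1.50 and -1.30. BMP was thus the lower of the factors in numbers 1 to 3 and CNTF in numbers 4 to 6. The BMP call was lost without BMP array 1 (adjusted p = 0.0890), 2 (0.0997) or 3 (0.0935), and without control array 1 (0.0530), 2 (0.0649), 4 (0.0802), 5 (0.0802) or 6 (0.0695), with the BMP and control arrays alone (0.0810), and without all arrays of number 1 (0.119), 2 (0.176), 5 (0.0556) or 6 (0.0618), while the difference stayed between -1.41 and -1.01 when 1 array was left out.

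Glul, which makes glutamine from glutamate and ammonia, was bright and was called in no comparison. It read 9504.3, 19633.8 and 25093.1 on BMP arrays and 11858.4, 20071.7 and 29280.7 on CNTF arrays, against 11961.7, 23123.9 and 27888.6 on control arrays. BMP gave -0.34 ± 0.27 (adjusted p = 0.563), lower in 6 of 6 pairs as were 8.37% of all probe sets, and this was called with the block (adjusted p = 0.0149), where 16.7% of all probe sets were. CNTF gave -0.20 ± 0.27 (adjusted p = 0.896). The other Glul probe sets gave -0.18 and -0.21 with BMP and -0.22 and -0.22 with CNTF, none called with or without the block. Glud1, glutamate dehydrogenase, read 25159.1, 31974.1 and 46189.2 on BMP arrays and 21779.8, 28912.6 and 31244.4 on CNTF arrays, against 24918.9, 38713.2 and 50456.7 on control arrays. CNTF gave -0.39 ± 0.17 (adjusted p = 0.374, interval -0.75 to -0.030), lower in 6 of 6 pairs as were 7.31% of all probe sets, and BMP -0.13 ± 0.17 (adjusted p = 0.782). The second Glud1 probe set gave -0.39 with CNTF (adjusted p = 0.275, and 0.0459 with the block).

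Other genes of these pathways were counted in 8 lists, each gene by its brightest probe set. Beside the counts stand the median differences, which over all named genes were 0.0053 for BMP and -0.0045 for CNTF. Over all named genes, 4.21% were called higher and 3.02% lower with BMP, and 2.04% and 0.823% with CNTF. The block called 16.7% of all probe sets, not genes, in either direction with BMP and 7.57% with CNTF. Counts of 1 gene in a list are to be read against these shares. Among 19 other glutamate and neutral amino acid transporters of the plasma membrane, 0 were called higher and 1 lower with BMP (1 and 4 with the block, median 0.037) and 0 with CNTF (limma; 1 lower at an unadjusted p under 0.05 and 1 with the block, median -0.093). The gene called was Slc6a6, the taurine transporter, at -0.54 ± 0.13 (adjusted p = 0.0133), with no overlap between the BMP and control arrays. The call was lost without all arrays of number 3 (0.0592), and a second Slc6a6 probe set gave -0.42 (adjusted p = 0.0566, and 0.01845 with the block). Among 6 vesicular and mitochondrial carriers, 1 was called higher and 0 lower with BMP (3 and 1 with the block, median 0.44). This was Slc25a18, a glutamate carrier of the inner mitochondrial membrane, at 1.16 ± 0.26 (adjusted p = 0.0101), with 4676.6, 13231.5 and 17038.6 on BMP arrays, against 3919.5, 4997.6 and 6601.7 on control arrays. With CNTF 0 were called (limma; 1 lower at an unadjusted p under 0.05 and with the block, median 0.098).

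Among 15 further enzymes of glutamate and glutamine, 1 was called higher and 0 lower with BMP (1 and 6 with the block, median -0.23) and 0 with CNTF (limma; 1 each way where p was under 0.05 before adjustment and with the block, median -0.13). Bcat2, the mitochondrial branched-chain aminotransferase, which forms glutamate, differed by 0.56 ± 0.15 with BMP (adjusted p = 0.0269). The Bcat2 call was lost without BMP array 1 (0.0654) or 2 (0.0711) or control array 3 (0.0661) or 4 (0.0591), and the difference was 0.35 with the table median as the constant (adjusted p = 0.0252). Among 12 glycine and serine enzymes, 0 were called with BMP (limma; 2 lower at an unadjusted p under 0.05, 3 with the block, median -0.058). With CNTF 0 were called higher and 1 lower (2 lower with the block, median -0.046), which was Phgdh, the first enzyme of serine synthesis, at -0.61 ± 0.14 (adjusted p = 0.0246). Phgdh read 16919.6, 18725.2 and 24974.1 on CNTF arrays, against 27382.4, 28147.2 and 35018.4 on control arrays, without overlap. Its call was lost without CNTF array 2 (0.0621), 3 (0.0574), 4 (0.0524) or 6 (0.0513) or control array 2 (0.0604) or 6 (0.0634).

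Further lists border on cystine uptake and on the ion gradients that drive transport. Among 10 genes of glutathione synthesis and use, 0 were called higher and 1 lower with BMP (1 and 2 with the block, median 0.042) and 0 with CNTF (limma; 1 higher at an unadjusted p under 0.05, 2 with the block, median -0.0029). The gene lower with BMP was Gpx4, the glutathione peroxidase of lipid hydroperoxides, at -0.37 ± 0.075 (adjusted p = 0.00544), without overlap. A second, dim Gpx4 probe set gave -0.24 with BMP (adjusted p = 0.729) and 0.0036 for BMP against CNTF. Among 16 genes of the amino acid response, which the transcription factor ATF4 drives, 0 were called with BMP (limma; 1 higher and 4 lower where p was under 0.05 before adjustment and with the block, median -0.032). With CNTF 2 were called higher and 1 lower, with or without the block (median -0.030). The transcription factors Atf3 and Cebpb differed by 1.72 ± 0.34 and 1.24 ± 0.23 (adjusted p = 0.00686 and 0.00402), both dim, and the gene called lower was Phgdh. Their size depended on the added constant: Atf3 differed by 3.12 with a constant of 1 and by 0.64 with the table median as the constant, and Cebpb by 1.74 and 0.53, all called. The Atf3 call was lost without all arrays of number 3 (0.0686). Atf3 read 184.9, 488.5 and 1286.8 on CNTF arrays, against 12.5, 77.6 and 161.5 on control arrays. Among 9 targets of the antioxidant regulator NRF2, 2 were called higher with BMP (2 with the block, median 0.14) and 0 with CNTF (limma; 3 higher at an unadjusted p under 0.05, 4 with the block, median 0.41). The quinone reductase Nqo1 differed by 1.08 ± 0.29 with BMP (adjusted p = 0.0288) and Nfe2l2, which encodes NRF2, by 1.003 ± 0.28 (adjusted p = 0.0358). The Nqo1 call was lost without BMP array 1 (0.0556), 2 (0.0589), 4 (0.0545) or 5 (0.0531) or control array 1 (0.05002), 2 (0.0697), 3 (0.0695) or 4 (0.0578). That of Nfe2l2 was lost without BMP array 1 (0.0796), 2 (0.0824), 4 (0.0579), 5 (0.0605) or 6 (0.0515) or control array 1 (0.0671), 2 (0.0848) or 3 (0.0738), and with the BMP and control arrays alone (0.0782). Among 10 transporter partners and genes of the ion gradient, 1 was called higher and 0 lower with BMP (1 and 1 with the block, median 0.12). This was Ajuba, an adaptor protein reported to bind GLT-1, at 1.65 ± 0.35 (adjusted p = 0.00726, second probe set 1.08). With CNTF 0 were called (limma; 1 each way where p was under 0.05 before adjustment and with the block, median -0.039).

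**Figure D4:**
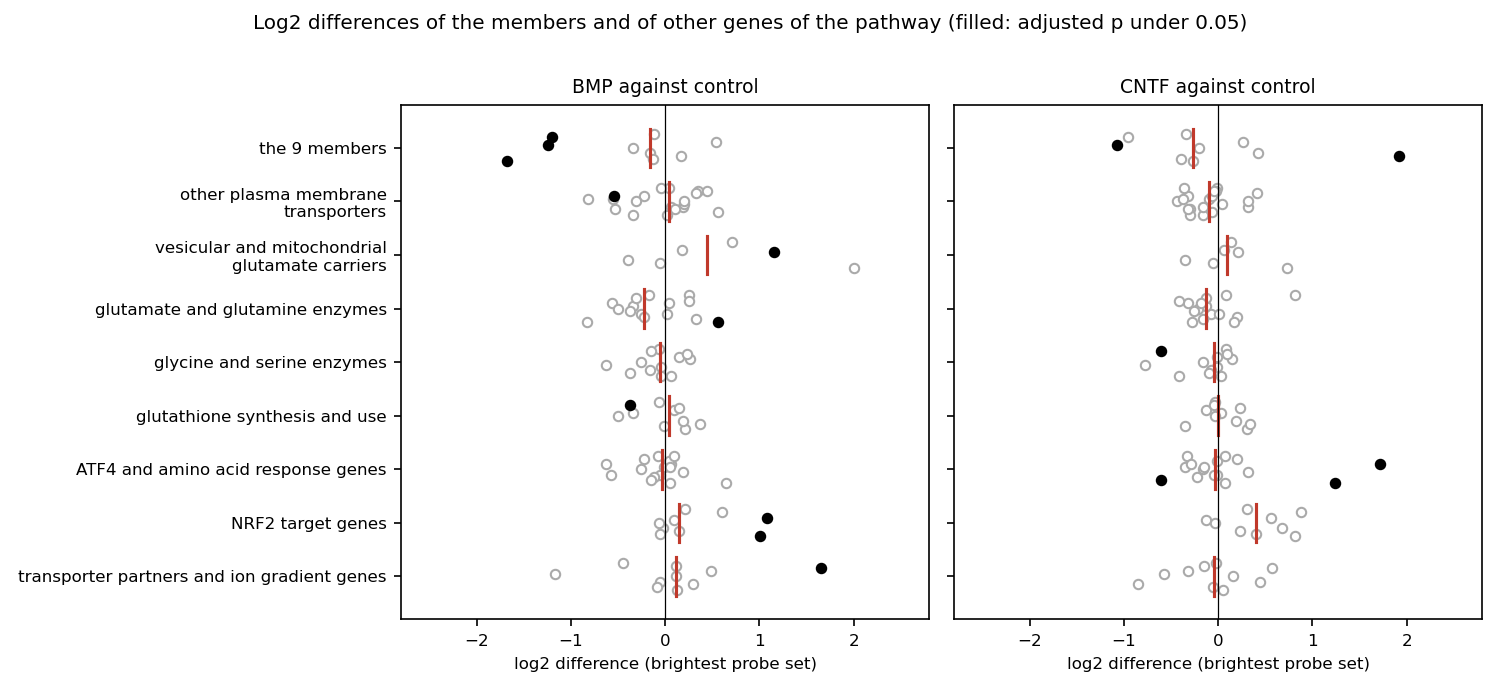
Log2 difference of every measured gene of the 8 pathway lists and of the 9 members, for BMP against control and CNTF against control, with called genes filled and the median of each list as a bar. Of the 9 members, 3 are filled with BMP, all below 0, and 2 with CNTF, Slc6a9 below and Slc7a11 above 0.

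Between BMP and CNTF, 3.74% of all named genes were called higher with BMP and 3.76% lower, 7.50% in either direction. Calls in the 8 lists are to be read against these shares. In the order above, 1 was higher and 1 lower of 19, 1 and 0 of 6, and 1 and 2 of 15. Then came 0 and 0 of 12, 0 and 1 of 10, 0 and 2 of 16, 0 and 0 of 9, and 1 and 0 of 10. These calls included genes that neither contrast with the controls had named, so they were picked after their values were seen. Oat, ornithine aminotransferase, was higher with BMP (0.66 ± 0.14, adjusted p = 0.00605) and Asns, asparagine synthetase, lower (-0.43 ± 0.10, adjusted p = 0.0121). Both calls were kept whichever single array was left out, and that of Asns was lost without all arrays of number 3 (0.0602). Pc, pyruvate carboxylase, differed by -0.98 ± 0.27 (adjusted p = 0.0334, lost without BMP array 1, 2 or 3 or CNTF array 1, 2, 5 or 6, at up to 0.0892). Slc4a4, a sodium bicarbonate cotransporter, differed by 1.15 ± 0.32 (adjusted p = 0.0356, lost without BMP array 2, 3, 4, 5 or 6 or CNTF array 1, 5 or 6, at up to 0.0797). Slc38a1, a glutamine transporter, differed by 0.37 ± 0.11 (adjusted p = 0.0498, lost without any 1 of BMP arrays 1, 2, 3 and 5 and CNTF arrays 1, 4, 5 and 6, at up to 0.127, and with a constant of 1, no intensity trend, array weights or only these groups in the fit, at up to 0.103). The other Slc38a1 probe sets gave 0.51 (adjusted p = 0.0979, and 0.0309 with the block) and 0.16 (adjusted p = 0.835). A second Slc4a4 probe set gave 1.41 and was called (adjusted p = 0.01945). Of the genes named before, Gpx4 and Atf3 were lower with BMP than with CNTF (-0.33 and -1.66, adjusted p = 0.0115 and 0.00476). The Gpx4 call was lost without all arrays of number 1 (0.0647), and Atf3 gave -3.08 and -0.62 with constants of 1 and the table median. Slc25a18 and Slc6a6 differed by 0.95 and -0.48 (adjusted p = 0.0314 and 0.0282), calls that were lost with only these groups in the fit (0.0694 and 0.0602). The Slc25a18 call was also lost without BMP array 1, 2, 3 or 5 or CNTF array 1, 4 or 6 (at up to 0.0815) and the Slc6a6 call without BMP array 2, 3 or 4 or CNTF array 4, 5 or 6 (at up to 0.0761). A second Slc6a6 probe set gave -0.33 between BMP and CNTF and was not called (adjusted p = 0.156).

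The genes whose levels ran most like those of the 4 called members were sought by Pearson correlation over the 18 arrays among 8924 other named genes at or above the table median. The arrays share groups and numbers, so these values are descriptions. For Slc1a1 they were Pcdh15 (0.975), Nkx2-2 (0.972) and Lrrc4c (0.969), and after group means had been removed the values were 0.927, 0.946 and 0.910. Nkx2-2 is a transcription factor of the oligodendrocyte lineage. For Slc38a3 they were Rnf180 (0.905), Ptprz1 (0.897) and Jakmip2 (0.883), with 0.900, 0.898 and 0.797 within groups. For Slc6a9 they were Aldh5a1 (0.881), Gtpbp6 (0.869) and Oip5-as1 (0.869), with 0.680, 0.613 and 0.406 within groups. For Slc7a11 they were Mindy2 (0.862), Psen2 (0.858) and Ebpl (0.849), with 0.788, 0.668 and 0.724 within groups. Among the members, Slc38a3 and Glul correlated at 0.74 (0.77 within groups), Slc1a3 and Glul at 0.60 (0.76) and Slc6a9 and Slc38a3 at 0.70 (0.33).

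Single markers of other cell types are given beside these values. Aqp4, which forms water channels in astrocytes, differed by 2.33 ± 0.62 with BMP (adjusted p = 0.0295) and 1.91 ± 0.62 with CNTF (adjusted p = 0.147, and 0.000311 with the block). The Aqp4 call with BMP was lost without BMP array 2 (0.0711), 3 (0.0608), 5 (0.0532) or 6 (0.0544) or control array 1 (0.0558) or 4 (0.0659). Its other probe sets were called higher with BMP as well, at 2.35 and 1.26 (adjusted p = 0.0198 and 0.02065). Mbp, a myelin protein, differed by -2.25 ± 0.71 with BMP (adjusted p = 0.0679, 0.000533 with the block, and -1.42 with 0.0601 without BMP array 1) and by 0.36 ± 0.71 with CNTF (adjusted p = 0.944). Both other Mbp probe sets were called lower with BMP, at -2.64 and -1.95 (adjusted p = 0.0316 and 0.00825). Tubb3, a neuronal tubulin, differed by 0.62 ± 0.26 with BMP (adjusted p = 0.196, and 0.00912 with the block) and by 0.26 ± 0.26 with CNTF (adjusted p = 0.836). A second, dim Tubb3 probe set went the other way, at -0.30 with BMP and -0.34 with CNTF (adjusted p = 0.673 and 0.790).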

How the data were processed

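The authors deposited a table of linear intensity values for 18 arrays (6 BMP, 6 CNTF, 6 control). How they were summarised and scaled is not given in the sources used here. Trimmed means (2% off each end) lay between 2500.7 and 2500.8 on all arrays, and values ranged from 0.404 to 162940. The deposited scaling was kept. The 57 control probe sets were left out. Values were taken as log2(intensity + 116.655), with the table's 20th percentile as the constant, and fitted with limma 3.58.1 in R 4.3.3 on all 18 arrays (group means, empirical Bayes with an intensity trend). Two-sided p-values were adjusted by Benjamini-Hochberg over 31042 probe sets. Of these, 20826 carried 1 gene symbol, 436 several and 9780 none in the platform annotation; none was renamed by the match to RefSeq.

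Same-numbered arrays deviated together from their group means in 18 of 18 pairs (r = 0.12 to 0.49, over 0.1 in each), so the title numbers pair the arrays. The main fit, which gave all standard errors and all calls not marked otherwise, did not use this pairing. A fit with the numbers as a replicate block is quoted where it changed a call on a difference that is printed. Genes named were the members with all probe sets, up to 3 called genes per list and contrast with control, the 3 genes most like each called member, and Gfap, Aqp4, Mbp, Pdgfra and Tubb3. Outside that rule, Oat, Asns, Pc, Slc4a4, Slc38a1 and Slc17a6 were named after their values were seen, and a few named genes are also given for BMP against CNTF. Members and lists were chosen with earlier results of these data known. The code was tested on simulated data. Alternatives were other constants, quantile normalization, dim probe sets left out, no trend, array weights, only the 2 groups compared, the block, and omission of single arrays or of all arrays of a number. The number of arrays limits the precision.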

Additional observations from a re-analysis of the deposited data

Results flagged for a closer look

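Among the 18 probe sets of the members, each group of 6 arrays was searched for an array far from the others, and chance marks about 1 in 20 groups. On CNTF arrays, the brightest Slc1a1 probe set stood at a log2 level of 13.20 (intensity 9271.5) on array 6, while the other 5 arrays lay at 12.51 to 12.74 (5733.6 to 6738.4). On control arrays, the Slc7a11 probe set stood at 9.94 (intensity 864.6) on array 6, while the other 5 lay at 8.89 to 9.23 (356.6 to 485.8). The gap to the nearest array was 0.66 and 0.67 of the range of the group in these cases.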

How the results depend on the processing

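With the numbers as a replicate block, 5176, 2349 and 4686 probe sets were called for BMP and for CNTF against controls and between the factors, where 1865, 721 and 1934 were called without it, and no call on a member changed beyond those named in the report. Leaving out all arrays of a number gave 740 (number 2) and 1008 (3) for BMP against control, 389, 420, 366 and 406 (2, 3, 5, 6) for CNTF against control, and 1111, 1214 and 1190 (2, 3, 5) for BMP against CNTF, from fewer arrays. The count of members called with CNTF was then 1 in place of 2 without numbers 2, 3, 5 or 6, and that between BMP and CNTF 1 in place of 2 without numbers 2, 3 or 5 or with only the 2 groups compared. Omission of single arrays gave 1 to 2 and 1 to 3 members in these comparisons, and 2 to 3 with BMP. The calls on Slc1a1 and with the brightest Slc6a9 probe set kept both direction and call against control (BMP, and for Slc6a9 CNTF) in every setting listed in the methods.

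Signs changed for small differences, and the cause was not tested. Slc1a2 (second probe set) with CNTF went to 0.12 with a constant of 1, 0.013 with array weights, and 0.094, 0.046 and 0.031 without numbers 1, 5 and 6; with BMP it was -0.11 without number 3, and for BMP against CNTF -0.051 without number 1. Without number 2, Slc1a3 with BMP was 0.064 and 0.058 on the lesser probe sets and Glud1 0.015. Glul (dimmest probe set) for BMP against CNTF was -0.0006, -0.044 and -0.0385 without numbers 1, 4 and 6. With single arrays left out, the ranges were -0.29 to 0.043 and -0.18 to 0.016 for the lesser Slc1a3 probe sets and -0.078 to 0.25 for Slc1a2 with BMP, -0.20 to 0.13 for Slc1a2 and -0.049 to 0.64 for Mbp with CNTF, and -0.26 to 0.018, -0.14 to 0.18 and -0.11 to 0.17 for Glul for BMP against CNTF.

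Time of the controls is unknown, and every difference against them carries that limit. The size of differences on dim probe sets depends on the constant (Atf3 with CNTF 0.64 to 3.12, Cebpb 0.53 to 1.74). Slc1a4, Slc7a11 and Slc38a3 rest on 1 probe set each.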

Other observations

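Slc17a6, the vesicular glutamate transporter VGLUT2 of neurons, was picked after its values were seen. It read 161.9, 1930.6 and 5345.1 (lowest, median, highest) on BMP arrays, against 146.8, 264.3 and 392.6 on control arrays. BMP against control gave 2.01 ± 0.64 on the log2 scale and was not called (adjusted p = 0.0684). It was called with the replicate block (adjusted p = 0.00189) and without BMP array 6 (0.0125) or all arrays of number 6 (0.0298), and was 1.22 with the table median as the constant (adjusted p = 0.0684). In numbers 1 to 6 the difference was 1.13, 2.30, 3.45, 2.60, 2.49 and 0.08, higher with BMP in 6 of 6 pairs.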
